A study of Mus musculus with 6 samples.

Results

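Genes of glycogen metabolism were followed in explanted embryonic ureters that had been exposed to lithium chloride (LiCl). The set was chosen by gene symbol and held 9 of the 56748 gene identifiers in the count table: *Ugp2*, *Gyg*, *Gys1* and *Gbe1* for synthesis, *Pygb*, *Pygl* and *Pygm* for breakdown, and *Ppp1r3b* and *Ppp1r3c* for the targeting of a phosphatase to glycogen. The samples were ureters of wildtype NMRI mouse embryos at E12.5, kept for 18 h on transwell membranes in culture medium with 15 mM LiCl (3 samples) or with water as the control (3 samples), and poly-A RNA of each sample was sequenced with a stranded kit. All 6 samples shared strain, stage, genotype and culture period, and no transgene was present. How many ureters made up a sample, and whether samples came from separate litters, was not given in the sources used here, so that p-values measure the spread between these samples, which may be technical.

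Glycogen is a branched store of glucose. It is built from UDP-glucose on a glycogenin primer by glycogen synthase and the branching enzyme, and phosphorylase releases its glucose units again as glucose-1-phosphate. Glycogen synthase is held inactive by phosphorylation, for which GSK3 is a main kinase, and is switched on by protein phosphatase bound to glycogen through targeting subunits. LiCl inhibits GSK3, which also marks beta-catenin for destruction, and is used in organ culture as an agonist of canonical WNT signaling. The comparison asked which transcripts of the glycogen machinery differed in level after LiCl. Glycogen, enzyme activity and phosphorylation were not measured in these samples.

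Total counts ranged from 28473436 to 31266945 per sample, and 18188 genes had enough counts to be tested, all 9 glycogen genes among them. The first dimension of a multidimensional scaling plot held 55.5% of the variance and separated the control from the LiCl samples. Values are given below as CPM (counts scaled to library size, with TMM factors) for comparisons between samples, and as FPKM (scaled per length) for comparisons between genes. Markers of the ureteric mesenchyme, among them *Tbx18*, and of the ureteric epithelium were present in every sample, and none of the 10 marker lists examined had a gene at 0 throughout. Skeletal muscle markers stood apart in 2 libraries: their summed level over 12 genes lay between 9.89 and 13.2 CPM in controls and at 9.45 CPM in LiCl replicate 2, but reached 41.2 CPM in LiCl replicate 1 and 85.9 CPM in LiCl replicate 3. *Myh3*, an embryonic myosin heavy chain, reached the highest CPM of them. It was at 12.8 CPM in LiCl replicate 1 and 28.9 CPM in LiCl replicate 3 and at most 0.966 CPM in the other libraries. *Acta1* and *Ttn* followed in CPM, at up to 10.5 and 8.02 CPM in LiCl replicate 3. Per length the order differed: in LiCl replicate 3 *Mylpf* was at 7.10, *Acta1* at 6.88, *Myh3* at 4.78 and *Ttn* at 0.069 FPKM. Not every marker was higher in both libraries. In LiCl replicate 1, *Tnnt3* (3.12 CPM) and *Ttn* (3.70 CPM) were below control replicate 1 (3.55 and 4.42 CPM). *Ckm* and *Tnnc2* had at most 2 counts in any LiCl library.

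After LiCl, transcripts of 6 of the 9 glycogen genes fell (*Ugp2*, *Gyg*, *Gys1*, *Pygb*, *Pygm* and *Ppp1r3b*), *Pygl* rose, and *Gbe1* and *Ppp1r3c* did not pass the test (edgeR quasi-likelihood test, Benjamini-Hochberg adjusted p under 0.05). In the same comparison 43.5% of all tested genes passed, 22.4% as lower and 21.1% as higher. On the log2 scale, the median fold change of the 9 genes was -0.28, beside -0.01 for all tested genes. The changes were mostly small: *Pygm* alone went past a log2 fold change of -1 as well, while 7.33% of all genes passed at this threshold, 4.59% as lower and 2.74% as higher. *Ugp2* and *Pygm* fell with estimates below -0.5, and 12.2% of all genes did so. The LiCl and control samples did not overlap for 7 of the 9 genes, 6 of them lower after LiCl and 1 higher. This was the case for 54.2% of all genes, 27.8% as lower and 26.4% as higher.

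**Figure D1:**
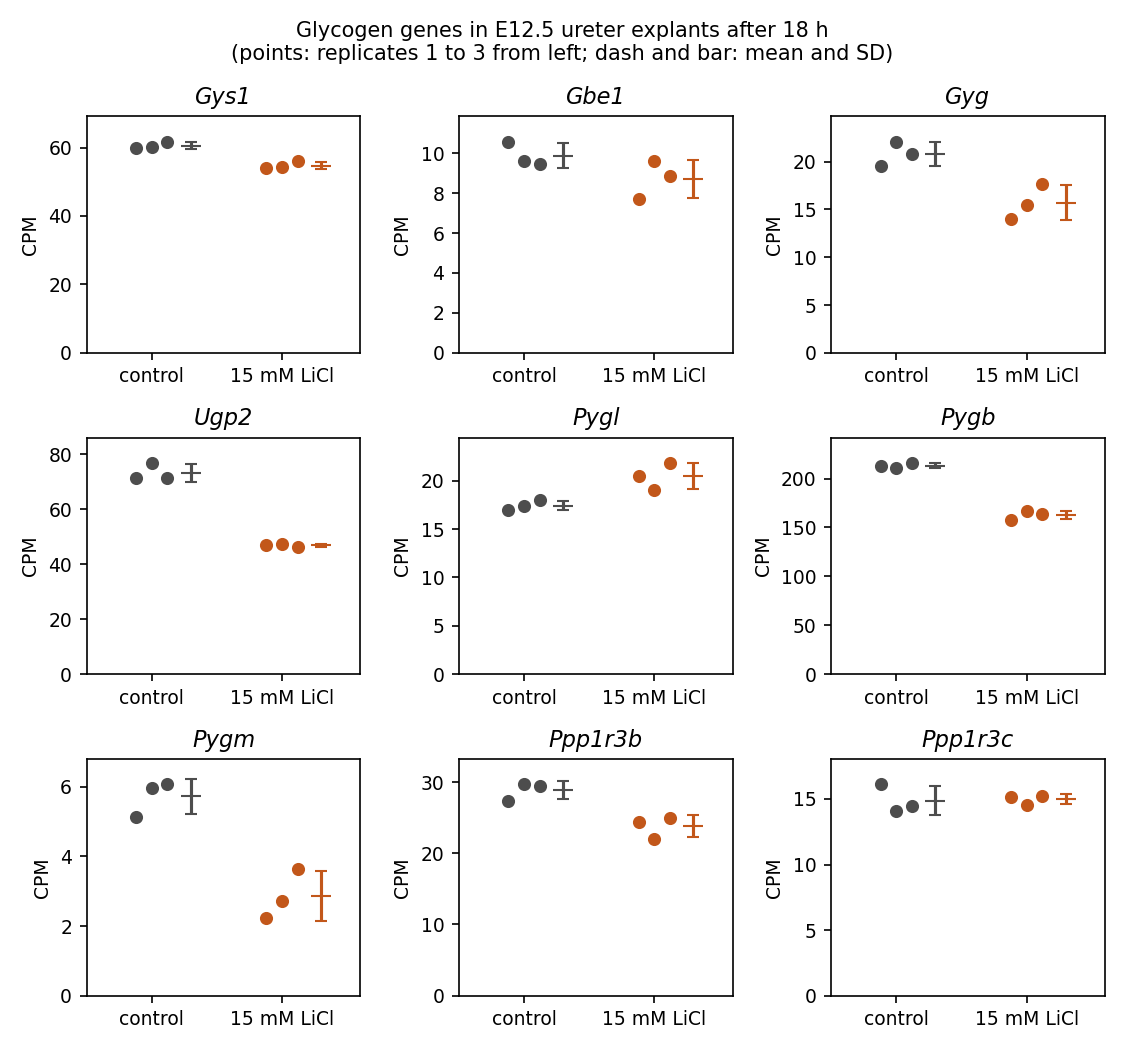
CPM of each glycogen gene in the 3 control and the 3 LiCl samples (points in the order of replicates 1 to 3, with the mean and SD beside them; each axis starts at 0). The points of *Ugp2*, *Pygb* and *Pygm* are widely separated between the groups, *Pygl* is the gene whose LiCl points all lie above the controls, and the points of *Gbe1* and *Ppp1r3c* overlap.

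Among the genes of synthesis, *Ugp2* showed the largest difference. It encodes UDP-glucose pyrophosphorylase, which makes the glucose donor for glycogen synthase. *Ugp2* was at 71.3, 76.8 and 71.2 CPM in the control replicates 1 to 3 and at 47.0, 47.2 and 46.2 CPM in the LiCl replicates. Thus, all LiCl samples lay close together and far below the lowest control. The mean went from 73.1 ± 3.18 to 46.8 ± 0.53 CPM (SD, n = 3 each), a decrease of 35.9% (log2 fold change -0.64, SE 0.05, adjusted p = 1.73e-05). This decrease was found under all 16 alternative settings, with log2 fold changes between -0.68 and -0.59. *Ugp2* shares 78 exon bases, 2.54% of its exon length, with *Gm12043* on the opposite strand.

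*Gyg* encodes glycogenin, the protein that primes a new glycogen particle by glucosylating itself. Its level was 19.5, 22.1 and 20.8 CPM in the controls and 14.0, 15.5 and 17.6 CPM after LiCl. The groups did not overlap, although LiCl replicate 3 came near to the lowest control. *Gyg* fell by 24.6% (log2 fold change -0.41, SE 0.10, adjusted p = 0.0075), and it passed the test under all alternative settings.

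*Gys1*, the glycogen synthase of muscle and most tissues other than liver, was at 60.0, 60.0 and 61.7 CPM in the controls. In the LiCl replicates it was at 53.9, 54.2 and 56.0 CPM, below every control by a narrow margin. The difference was small, a decrease of 9.68% (log2 fold change -0.15, SE 0.05, adjusted p = 0.029). The call was lost under 12 of 16 alternative settings: when any 1 of the 6 libraries was left out (adjusted p between 0.051 and 0.119), without LiCl replicates 1 and 3 (0.22), with DESeq2 (0.143), without a filter (0.184), with the replicate block (0.065) and in limma on filtered FPKM (0.062 and 0.064). The sign was negative under all of them. *Gys1* shares 310 exon bases, 6.47% of its exon length, with *Ruvbl2* on the opposite strand, and the strand setting of the counting was not given in the sources used here. *Gys2*, the liver synthase, had a single count over all 6 libraries.

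*Gbe1*, which encodes the branching enzyme, was at 10.6, 9.60 and 9.46 CPM in the controls and at 7.69, 9.59 and 8.83 CPM after LiCl. LiCl replicate 2 lay within the range of the controls. The log2 fold change was -0.18 (SE 0.11, adjusted p = 0.21). *Gys1* passed with a smaller estimate, but its SE was 0.05.

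The 3 phosphorylase genes, named after liver (*Pygl*), brain (*Pygb*) and muscle (*Pygm*), did not move in a single direction. *Pygb* was the highest of the 9 glycogen genes per length in both groups. It was at 213, 211 and 216 CPM in the controls and at 158, 166 and 163 CPM after LiCl. The spread within each group was far smaller than the distance between the groups. The mean level decreased by 23.8% (log2 fold change -0.39, SE 0.04, adjusted p = 0.00012), and *Pygb* passed under every alternative setting.

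*Pygm* had the largest fold change of the set at the lowest level. Its counts were 148, 185 and 186 in the controls and 69, 76 and 103 in the LiCl samples, or 5.15, 5.96 and 6.07 CPM against 2.22, 2.72 and 3.65 CPM. The highest LiCl sample, replicate 3, was still below the lowest control. *Pygm* fell by 50.1% (log2 fold change -1.003, SE 0.19, adjusted p = 0.0022). The estimate no longer reached -1 when control replicate 2 (-0.97), control replicate 3 (-0.95), LiCl replicate 1 (-0.84) or LiCl replicate 2 (-0.97) was left out. With all 6 samples it also fell short of -1 with DESeq2 (-0.986), with RLE size factors (-0.992) and without a filter (-0.976). It was -0.55 on the scale of log2(FPKM + 1) and -0.93 on that of log2(FPKM + 0.1), although the test was passed in all of these cases. Myophosphorylase is characteristic of skeletal muscle, whose summed markers were high in LiCl replicates 1 and 3. Without both of these libraries *Pygm* was as low as with them (log2 fold change -1.07, adjusted p = 0.011), the remaining LiCl sample being assumed to vary like the controls.

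*Pygl* was the only gene of the set that rose. The control replicates were at 17.0, 17.3 and 18.0 CPM and the LiCl replicates at 20.5, 19.1 and 21.8 CPM. Each LiCl sample lay above each control, with LiCl replicate 2 nearest to them. The increase amounted to 17.4% (log2 fold change 0.23, SE 0.07, adjusted p = 0.029). It did not pass when control replicate 1 (adjusted p = 0.082), control replicate 2 (0.065), control replicate 3 (0.053), LiCl replicate 1 (0.058) or LiCl replicate 3 (0.112) was left out, nor with DESeq2 (0.051) or with scaling to library size alone (0.066), although the sign was positive under all 16 settings. Hepatocyte markers (*Alb*, *Afp*, *Apoa1* and *Ttr*) had too few counts to be tested, and their summed level was at most 0.783 CPM in controls and at most 0.286 CPM after LiCl.

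The composition of the phosphorylase transcripts shifted slightly. Of the summed FPKM of the 3 genes, *Pygb* made up 91.6, 90.9 and 90.9% in the controls and 90.0, 90.5 and 88.8% after LiCl. *Pygl* made up 5.09, 5.21 and 5.28% in the controls and 8.14, 7.24 and 8.27% after LiCl. The share of *Pygm* was 3.31, 3.84 and 3.82% in the controls and 1.89, 2.21 and 2.97% after LiCl. None of these shares overlapped between the groups. They are given as values, since with 3 samples per group an exact permutation test cannot go below p = 0.1. *Pygb* remained the main phosphorylase transcript in every library, *Pygm* ranked below *Pygl* throughout, and the difference in the *Pygb* share, -1.39 percentage points, was -0.89 without LiCl replicate 3. The summed FPKM of the phosphorylase genes was 48.1 ± 0.71 in controls and 37.7 ± 1.00 after LiCl (SD, n = 3 each). Because *Gys1* differed less than this sum, the ratio of *Gys1* to it was 0.260 ± 0.001 in controls and 0.303 ± 0.006 after LiCl, with 0.296 as the lowest LiCl value and 0.261 as the highest control value.

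**Figure D2:**
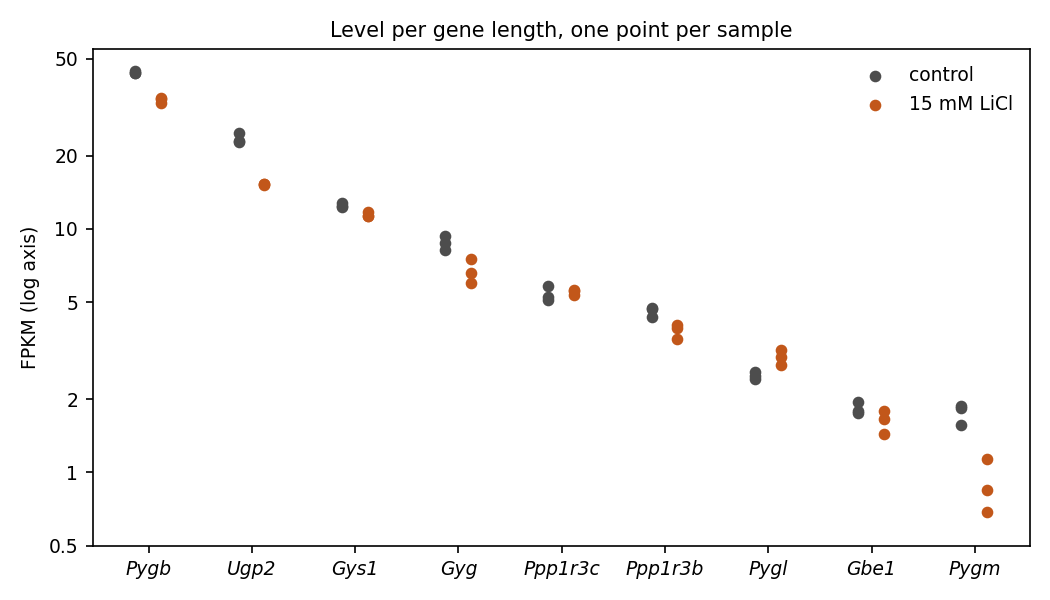
FPKM of the glycogen genes (log axis), ordered by their mean in the controls, with 1 point per sample and the control and LiCl samples side by side. *Pygb* is highest (43.9 in controls, 33.8 after LiCl), *Pygm* lowest (1.76 and 0.89), and the order of the means is the same in both groups.

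Compared per length, the mean FPKM in controls was 43.9 for *Pygb*, 23.6 for *Ugp2*, 12.51 for *Gys1*, 8.78 for *Gyg*, 5.39 for *Ppp1r3c*, 4.59 for *Ppp1r3b*, 2.50 for *Pygl*, 1.83 for *Gbe1* and 1.76 for *Pygm*. Neighbours in this order did not overlap between genes, except *Gbe1* and *Pygm* in the controls. After LiCl the order was the same, and *Pygm* at 0.89 ± 0.23 FPKM was clearly below *Gbe1* at 1.63 ± 0.18 FPKM (SD, n = 3 each).

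*Ppp1r3b* and *Ppp1r3c* encode subunits that bring protein phosphatase to the glycogen particle, where it activates glycogen synthase and inactivates phosphorylase. *Ppp1r3b* was at 27.4, 29.7 and 29.5 CPM in the controls and at 24.4, 22.0 and 24.9 CPM after LiCl. All LiCl samples were below the lowest control. It fell by 17.6% (log2 fold change -0.28, SE 0.07, adjusted p = 0.0096), and the call was kept under all alternative settings. *Ppp1r3c*, also known as protein targeting to glycogen, was at 16.1, 14.0 and 14.4 CPM in the controls and at 15.1, 14.6 and 15.3 CPM after LiCl. The LiCl samples lay within the range of the controls. The log2 fold change of *Ppp1r3c* was 0.01 (SE 0.08, adjusted p = 0.91), and its sign changed between settings.

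**Figure D3:**
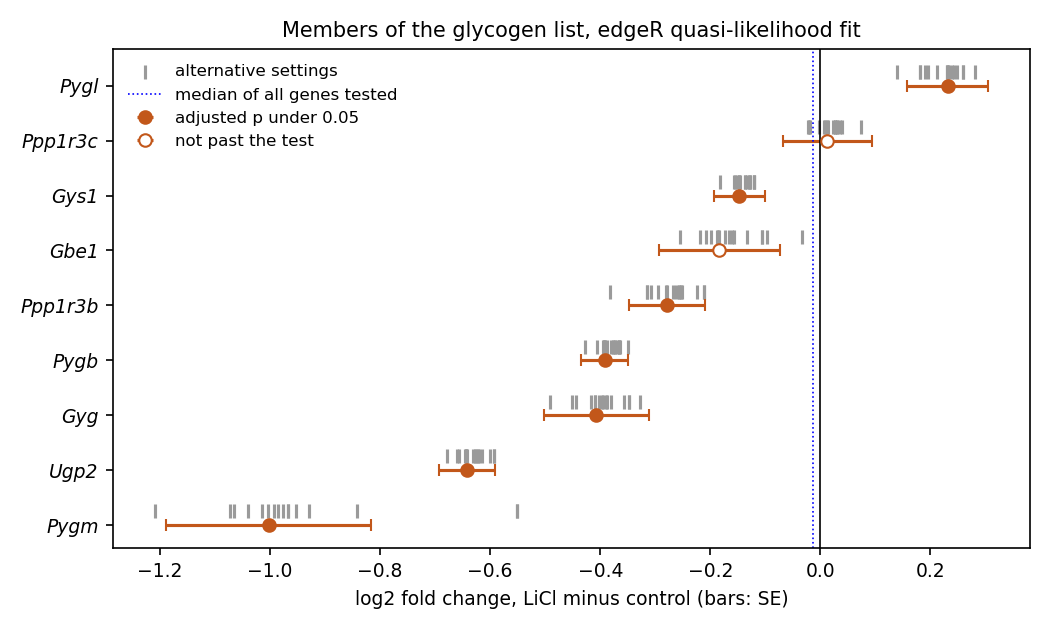
log2 fold change of each glycogen gene (LiCl minus control; circles with SE bars, filled where the adjusted p is under 0.05, open where not), with grey ticks for the estimates under the alternative settings and a dotted line at the median of all tested genes. The estimates run from -1.003 for *Pygm* to 0.23 for *Pygl*, and the ticks of *Ppp1r3c* lie on both sides of 0.

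The sequence upstream of the transcription start was examined in RefSeq's annotation of GRCm38.p6, in windows of 250 bases before the start. Of the 9 genes, 8 had an entry, with 9 windows in all because *Ugp2* has 2 starts. ACGTG, the core of hypoxia response elements, was searched on both strands and lay in windows of 5 genes (*Ppp1r3c*, *Pygb*, *Pygl*, *Pygm* and 1 of the *Ugp2* starts), against 16.6% of all 32851 windows. The E-box CACGTG, which contains ACGTG, was present for *Ppp1r3c* alone, against 6.02% of all windows. CTTTGAT, a core motif of the TCF/LEF factors that act with beta-catenin, was likewise found for *Ppp1r3c* alone, against 3.21% of all windows. Its matches in *Ppp1r3c* began 129 and 92 bases before the start. A match is a run of letters and not a shown binding site. The 4 windows below belong to both genes below -0.5 (*Ugp2* and *Pygm*), to the gene that rose (*Pygl*) and to the gene with the TCF/LEF matches (*Ppp1r3c*). They lie at chr11:21371268-21371517 on the minus strand for *Ugp2*, chr19:6384158-6384407 on the plus strand for *Pygm*, chr12:70227684-70227933 on the minus strand for *Pygl* and chr19:36736605-36736854 on the minus strand for *Ppp1r3c*. Capitals mark the matches to these motifs on either strand, 5′ to 3′ along the gene.
*Ugp2*: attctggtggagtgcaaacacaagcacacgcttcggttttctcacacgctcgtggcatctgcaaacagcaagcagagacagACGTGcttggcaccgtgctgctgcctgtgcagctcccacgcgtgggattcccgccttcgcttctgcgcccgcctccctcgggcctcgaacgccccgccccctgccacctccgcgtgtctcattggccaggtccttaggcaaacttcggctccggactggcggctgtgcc
*Pygm*: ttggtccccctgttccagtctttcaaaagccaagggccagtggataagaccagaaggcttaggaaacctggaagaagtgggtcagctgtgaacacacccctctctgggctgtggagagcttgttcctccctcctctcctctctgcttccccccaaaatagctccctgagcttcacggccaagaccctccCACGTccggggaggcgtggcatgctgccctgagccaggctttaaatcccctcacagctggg
*Pygl*: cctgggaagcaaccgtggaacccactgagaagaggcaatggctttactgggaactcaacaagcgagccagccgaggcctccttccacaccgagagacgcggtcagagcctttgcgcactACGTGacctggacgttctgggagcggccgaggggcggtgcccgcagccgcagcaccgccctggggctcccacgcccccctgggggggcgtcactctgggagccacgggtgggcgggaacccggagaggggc
*Ppp1r3c*: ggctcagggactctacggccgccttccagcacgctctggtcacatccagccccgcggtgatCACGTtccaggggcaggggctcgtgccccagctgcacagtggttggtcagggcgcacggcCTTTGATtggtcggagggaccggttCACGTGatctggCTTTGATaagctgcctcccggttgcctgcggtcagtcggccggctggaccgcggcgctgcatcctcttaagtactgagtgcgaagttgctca

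The wider pathway was described through a list of 38 further genes, of which 35 could be tested (*Gys2*, *Ppp1r3a* and *Ppp1r3g* had too few counts). Of these, 10 fell and 4 rose, beside 22.4% lower and 21.1% higher among all tested genes, and the median estimate was -0.05 on the log2 scale. The count of genes that passed in either direction was thus close to the 43.5% found for all genes, and the groups of genes within the list are given as counts only. Genes of hexose phosphate and UDP-glucose metabolism made up most of the lower ones. Of 12 such genes 7 fell, by estimates between -0.51 (*Hk1*) and -0.16 (*Gpi1*), and *Slc2a1* rose. *Gpi1*, which interconverts glucose-6-phosphate and fructose-6-phosphate, lost its call under 10 of 16 settings, among them DESeq2 (adjusted p = 0.0501), no filter (0.077), the replicate block (0.059), limma on FPKM (between 0.071 and 0.084), and the fits without control replicate 2 (0.068), LiCl replicate 1 (0.068) or LiCl replicate 2 (0.067). *Slc2a3*, the glucose transporter GLUT3 (log2 fold change -0.22, adjusted p = 0.041), lost its call under 13 of 16 settings, among them DESeq2 (adjusted p = 0.089), RLE size factors (0.0504), the replicate block (0.053) and the removal of any single library other than LiCl replicate 2 (between 0.065 and 0.148).

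*Hk1*, the hexokinase that phosphorylates glucose on entry in most tissues, was at 139, 134 and 137 CPM in the controls and at 92.2, 96.8 and 99.1 CPM after LiCl. The groups were far apart. The decrease was 29.6% (log2 fold change -0.51, SE 0.05, adjusted p = 4.21e-05). *Slc2a1*, the glucose transporter GLUT1, was at 54.7, 61.0 and 56.2 CPM in the controls and at 70.6, 75.2 and 76.8 CPM after LiCl (log2 fold change 0.37, SE 0.06, adjusted p = 0.0009). *Pgm1*, whose product interconverts glucose-1-phosphate and glucose-6-phosphate, fell by 21.4%, and *Pgm2* fell by 13.9%. *Slc2a1*, *Slc2a3*, *Gpi1*, *Pgm1* and *Pgm2* were singled out after their values had been seen.

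The largest differences of the list were in 2 regulators with low levels. *Ppp1r3d*, a further glycogen-targeting subunit, was at 4.63, 4.64 and 4.05 CPM in the controls and at 1.29, 2.15 and 2.38 CPM after LiCl. It fell by 56.5% (log2 fold change -1.20, SE 0.22, adjusted p = 0.0020), and the estimate was -0.97 without LiCl replicate 1. On the scale of log2(FPKM + 1) it was -0.56, and on that of log2(FPKM + 0.1) it was -1.09. *Epm2a* encodes laforin, the phosphatase that removes phosphate from glycogen itself and is mutated in Lafora disease. *Epm2a* was at 5.53, 5.35 and 5.55 CPM in the controls and at 2.38, 2.58 and 2.80 CPM after LiCl, so that the groups were clearly separated. The log2 fold change was -1.08 (SE 0.13, adjusted p = 0.00023). It was -0.57 on the scale of log2(FPKM + 1) and -0.98 on that of log2(FPKM + 0.1). *Nhlrc1*, which encodes malin, the ubiquitin ligase that acts with laforin, had a log2 fold change of 0.24 (SE 0.13, adjusted p = 0.16).

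None of the 5 phosphorylase kinase genes, whose products activate phosphorylase, passed the test, beside 43.5% of all tested genes that did. The log2 fold changes were -0.11 for *Phka1*, 0.09 for *Phka2*, -0.05 for *Phkb*, 0.30 for *Phkg1* and 0.07 for *Phkg2*, with unadjusted p between 0.14 and 0.55, and DESeq2 likewise called none of them. *Phkg1*, the muscle form of the catalytic subunit, had between 5 and 23 counts per library, and its estimate had an SE of 0.47. Among the 6 tested subunits of glycogen-bound protein phosphatase in the list, *Ppp1r3d* was the gene that passed, and the catalytic subunit genes *Ppp1ca*, *Ppp1cb* and *Ppp1cc* had log2 fold changes between -0.06 and 0.05. These catalytic subunit genes and *Nhlrc1* were named after their values had been seen.

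Of the 9 genes for kinases that phosphorylate glycogen synthase, 3 rose, beside 21.1% of all tested genes. They encode subunits of casein kinase II: *Csnk2a1* (log2 fold change 0.13, adjusted p = 0.033), *Csnk2a2* (0.17, adjusted p = 0.016) and *Csnk2b* (0.18, adjusted p = 0.044). These 3 genes were named after their values had been seen. *Csnk2a1* lost its call under 8 of 16 alternative settings, *Csnk2b* under 10 and *Csnk2a2* under 3. Scaling to library size alone lost all 3 (adjusted p = 0.131, 0.12 and 0.055 in this order). The call of *Csnk2a2* was kept when any single library other than control replicate 3 was left out. The groups of *Csnk2b* overlapped. The pathway list held 4 higher genes with all libraries, but 2 without control replicate 1, LiCl replicate 1 or LiCl replicate 3, and 1 without control replicate 3. The transcripts of the kinases that LiCl inhibits differed little. *Gsk3b* was at 226, 204 and 228 CPM in the controls and at 205, 233 and 221 CPM after LiCl, with overlapping groups (log2 fold change 0.00, SE 0.06, adjusted p = 0.99). *Gsk3a* was at 92.5, 93.2 and 95.3 CPM in the controls and at 106, 98.9 and 101 CPM after LiCl. Its groups did not overlap, but the difference did not pass the test (log2 fold change 0.12, SE 0.05, adjusted p = 0.062). *Gsk3a* passed under 2 of 16 alternative settings: edgeR with RLE size factors (adjusted p = 0.047) and limma on unfiltered log2(FPKM + 1) (0.046).

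**Figure D4:**
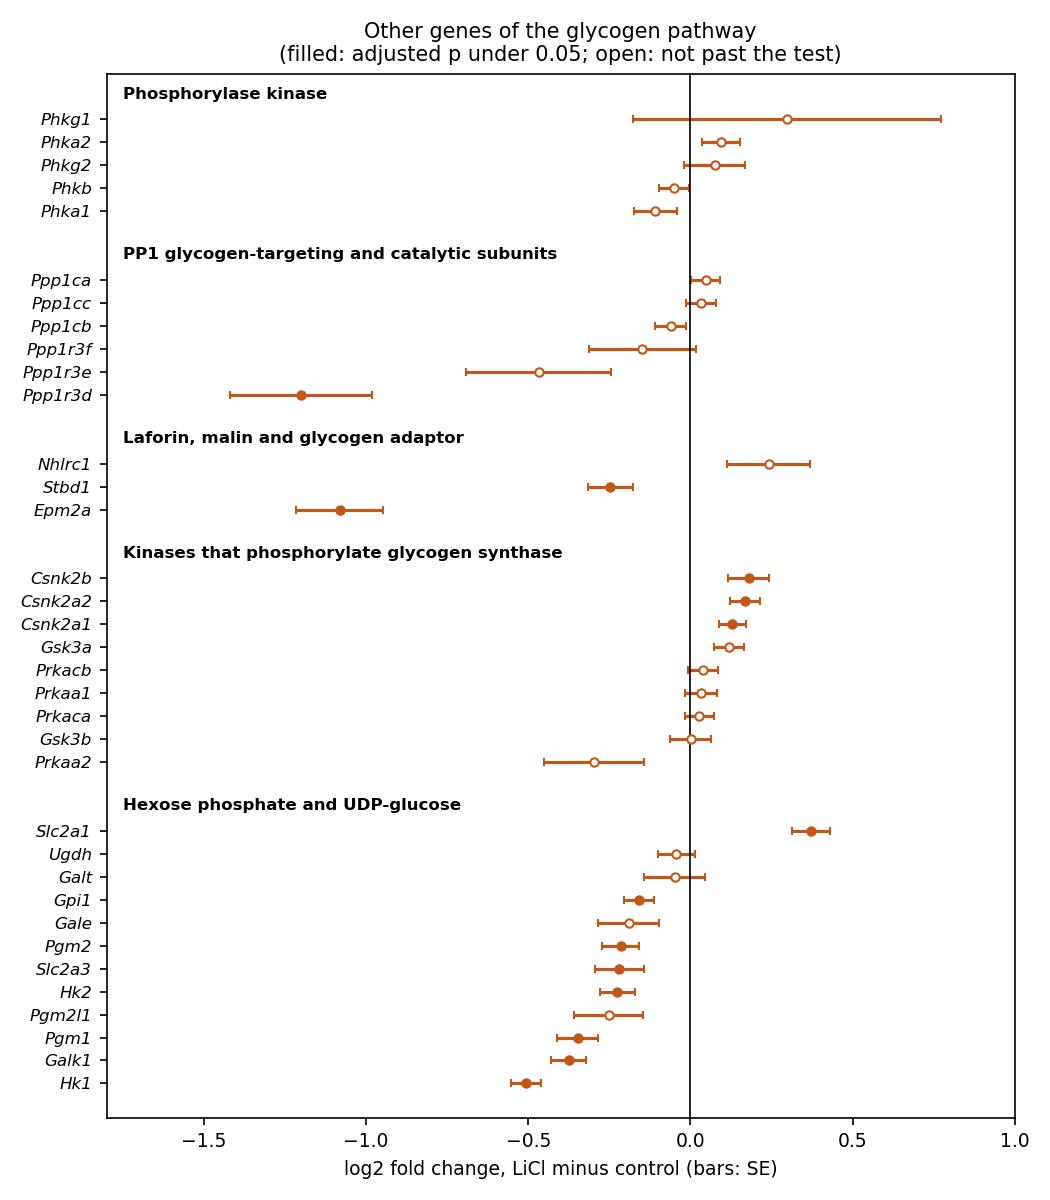
log2 fold change (LiCl minus control; points with SE bars, filled where the adjusted p is under 0.05) of the 35 tested genes of the wider glycogen pathway, grouped by function. *Ppp1r3d* (-1.20) and *Epm2a* (-1.08) lie farthest to the left, the phosphorylase kinase genes are all open, and *Slc2a1* (0.37) lies farthest to the right among the filled points.

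The profile of *Pygm*, the glycogen gene with the largest fold change, was set beside that of all other genes over the 6 samples. The highest Pearson correlations of log2(CPM + 1) were with *Gm11517* (r = 0.999), *Chid1* (r = 0.998) and *Vat1* (r = 0.998). In total 415 of the 18188 tested genes had r over 0.95. With 6 points that fall into a control and a LiCl cluster, these values mostly describe the difference between the groups.

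The cell types of the explants also differed in their marker levels after LiCl. Among all tested genes 22.4% passed as lower and 21.1% as higher, beside which the marker counts below stand. Markers of the ureteric epithelium summed to between 1052 and 1358 CPM in controls and between 781 and 824 CPM after LiCl, and 9 of these 10 genes fell while *Epcam* rose. Markers of the mesenchyme summed to between 2089 and 2323 CPM in controls and between 1753 and 1789 CPM after LiCl, with 3 of 7 genes lower and 1 higher. *Pdgfra*, the most abundant of them in controls, went from a mean of 802 to 444 CPM. *Gli1* rose, and *Foxf1*, *Ptch1* and *Aldh1a2* did not pass. Smooth muscle markers lay between 68.1 and 87.3 CPM in controls and between 48.8 and 62.5 CPM after LiCl, with 3 of 5 genes lower. Erythroid markers lay between 441 and 616 CPM in controls and between 565 and 862 CPM after LiCl, with 2 of 4 genes higher. Nephron progenitor markers summed to between 47.6 and 53.0 CPM in controls and between 33.2 and 42.7 CPM after LiCl, and *Cited1* (log2 fold change -1.29) and *Eya1* (-0.36) fell. Of 3 macrophage markers *Adgre1* rose (log2 fold change 0.58, adjusted p = 0.024), while their sums overlapped between the groups, as did those of endothelium and of glia and neurons. In such bulk samples, fewer cells of a type and less RNA per cell cannot be told apart, and the part of these shifts in the levels of the glycogen genes was not tested. Without LiCl replicates 1 and 3, the libraries with skeletal muscle RNA, 5 of the 9 glycogen genes fell (edgeR, adjusted p under 0.05), where 10.9% of all genes tested in this fit with a single LiCl sample passed as lower and 10.4% as higher. *Gys1* had nearly the same log2 fold change without these libraries (-0.15) but a larger SE (0.08, against 0.05 with all samples) and did not pass (adjusted p = 0.22). *Pygl* did not pass either, at a smaller estimate (log2 fold change 0.14, SE 0.11, adjusted p = 0.391).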

How the data were processed

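The authors deposited raw counts per gene for 3 control and 3 LiCl samples and FPKM values per sample. Their text names HISAT2 and featureCounts on GRCm39, while the submitters' processing notes name fastp 0.23, STAR 2.7, featureCounts 2.0 and DESeq2 1.40. The aligner is therefore uncertain, and the strand setting and annotation release are not given in the sources used here. In the deposited FPKM values, the counts and DESeq2 size factors gave 1 whole-number length per gene for 100% of 14308 genes with over 300 counts (within 0.1% between samples and 0.05 bases of a whole number). Gene symbols came from GENCODE vM21 (GRCm38), which named 52073 of 56748 identifiers; the others held 0.191% of counts. Since the build differs, no gene coordinates are given for the counts.

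Counts were filtered with filterByExpr, scaled by TMM (factors 0.98 to 1.03) and fitted with edgeR 4.0.16 (glmQLFit, glmQLFTest; R 4.3.3) on all 6 samples without covariates, with Benjamini-Hochberg adjustment over 18188 genes and a threshold of 0.05. Alternatives were other scaling, other filters, DESeq2 1.42.0, limma 3.58.1 on log2(FPKM + 1) or log2(FPKM + 0.1) above a mean of 0.5 FPKM or unfiltered, a replicate block, and each library left out. The fit was tested on simulated data. Total counts were 28473436 to 31266945 per sample, and the precision also depends on the spread between replicates. Pairs of replicates were not the same library: their counts gave a chi-square over its degrees of freedom of 5.79 to 14.4. All 9 members were named, and of the pathway list those past 0.5 or -0.5, *Gsk3a*, *Gsk3b* and the phosphorylase kinase genes. The hypoxia genes with the highest and lowest log2 fold change and the 3 skeletal muscle markers with the highest CPM were also named. So were the 3 genes most like the member with the largest fold change. Other pathway genes and cell type markers in the text were named outside this rule, after their values had been seen. The members and lists were chosen with earlier results of these data known.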

Additional observations from a re-analysis of the deposited data

How the results depend on the processing

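For 30 single genes under up to 16 alternative settings, 396 of 477 log2 fold changes kept direction and call, 69 lost the call, 2 gained it and 10 changed sign. None of those that changed sign had passed under either setting: *Ppp1r3c* was at -0.0225 with scaling to library size alone, -0.019 without LiCl replicates 1 and 3 and between -0.0207 (without control replicate 2) and 0.0734 with 1 library left out, *Phkg1* between -0.102 (without control replicate 3) and 0.936 with 1 library left out, *Phkg2* at -0.0798 without LiCl replicates 1 and 3, and *Gsk3b* at -0.0348 with library size alone, -1.8e-05 with at least 10 counts in every sample and between -0.0435 and 0.0505 with 1 library left out. Leaving out LiCl replicates 1 and 3 together was chosen after seeing the data.

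The count of members that rose, 1 in the main test, was 0 with library size alone, with DESeq2, without LiCl replicates 1 and 3, at a log2 fold change past 1 and in edgeR's test against a log2 fold change of 0.5, and between 0 and 1 with 1 library left out. The count that fell, 6 in the main test, was 5 to 6 under other scaling, filters and tools, 5 with each library left out, 1 past a log2 fold change of -1 and 2 in the test against 0.5. Of the pathway list, 4 genes rose in the main test, 1 with library size alone, 1 without LiCl replicates 1 and 3, and 1 to 4 with a library left out, and the 10 that fell were 7 to 11. As shares of CPM, *Pygl* differed by 3.64 and *Pygb* by -2.76 percentage points.

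Deviations of samples with the same replicate number had correlations of 0.01, -0.14 and 0.12. Samples with different numbers had correlations between -0.17 and 0.14. These values show no pairing by replicate number, but with 3 samples per group they cannot exclude it. The fit with the replicate block gave 5 members lower and 1 higher, and 2 pathway genes higher and 8 lower. In simulated data edgeR recovered 28% of changes of 0.3, 68% of 0.4, 82% of 0.5 and 100% of 1 on the log2 scale, at the depth and sample number of these data. Only 50 genes of each size were changed there among 18300 tested genes, whereas 43.5% of genes passed in the real data. The adjustment for many tests was thus stricter in the simulation, and its rates do not show how many such changes the real comparison would find.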

Other observations

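Because *Gys1* and *Ppp1r3c* are also known as responders to low oxygen in other tissues, 12 hypoxia-responsive genes were read in the same comparison. Of these, 2 rose and 5 fell, beside 21.1% higher and 22.4% lower among all tested genes. The median log2 fold change was -0.08. Below -0.5 lay 3 of the genes that fell, as did 12.2% of all genes. *P4ha1*, a collagen prolyl hydroxylase subunit, was the highest, with 69.3, 64.9 and 63.2 CPM in the controls and 85.0, 79.5 and 86.9 CPM after LiCl (log2 fold change 0.35, SE 0.06, adjusted p = 0.0010). *Ankrd37* was the lowest and had few counts, with 26, 23 and 24 in the controls and 9, 14 and 15 after LiCl (log2 fold change -0.88, SE 0.31, adjusted p = 0.045). The groups of both genes did not overlap, which was the case for 54.2% of all genes. The list as a whole did not move in a single direction. Its 3 called changes past 0.5 on the log2 scale were decreases. Among all 18188 tested genes, 2222 were called lower and 1309 higher past this size.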
